A study of Homo sapiens with 9 samples.

Results

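HPRT1 and 9 other enzymes of purine metabolism were examined in PANC-1 cells, an epithelial line from a human pancreatic carcinoma, after transfection with a microRNA mimic. The 10 genes were taken from a list of symbols, each with 1 probe set, and make up 10 of the 14232 genes measured with a probe set of their own. HPRT1 was chosen by its fall with miR-520f on these arrays, and its differences from the controls are therefore given as a description, with no test. The other 9 genes were listed as enzymes of the same pathways, with results of these arrays known. The groups were cells given 20 nM of a miR-520f mimic, cells given 20 nM of a negative control mimic, and non-transfected cells that received the lipid transfection reagent alone, with 3 arrays each. All groups were grown with 10% serum and 2 mM glutamine, and RNA was taken 72 h after transfection. A mimic is a synthetic double-stranded RNA that loads into the silencing complex and acts as the microRNA it copies. All arrays came from 1 cell line, and the labels give the replicates as biological but not whether they were separate cultures.

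Purine nucleotides are made along 2 routes. In de novo synthesis the base is built step by step on phosphoribosyl pyrophosphate (PRPP), from glutamine, glycine, aspartate and folate-bound carbon units, up to inosine monophosphate (IMP), from which adenylate and guanylate branch off. In salvage, free bases and nucleosides are turned back into nucleotides: HPRT1 joins hypoxanthine and guanine to PRPP, APRT does so with adenine, ADK phosphorylates adenosine, and PNP splits inosine and guanosine into the bases that HPRT1 uses. Inherited loss of HPRT1 causes Lesch-Nyhan disease with overproduction of uric acid, and HPRT1 is also widely used as a reference gene in expression assays.

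The mature sequences of the transfected microRNA are shown because a microRNA selects its targets mainly through its seed, bases 2 to 8, printed in capitals. The labels name miR-520f without an arm, so both arms of RefSeq (GRCh38.p14) are printed 5′ to 3′, with miR-520c-3p and miR-302a-3p for comparison.
hsa-miR-520f-3p: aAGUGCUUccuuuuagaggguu
hsa-miR-520f-5p: cCUCUAAAgggaagcgcuuucu
hsa-miR-520c-3p: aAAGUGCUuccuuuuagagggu
hsa-miR-302a-3p: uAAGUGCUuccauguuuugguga
The first 21 bases of miR-520f-3p equal miR-520c-3p from its second base on, so the seed of miR-520f-3p is shifted by 1 base. Bases 1 to 7 of miR-520f-3p are AAGUGCU, the seed of 12 mature microRNAs in the RefSeq table, among them miR-302a-3p to miR-302d-3p, miR-372-3p and miR-373-3p. The seed AGUGCUU itself was held by 1 of 2370 mature microRNAs. Target sites in the 10 mRNAs were not examined here.

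Values were RMA log2 intensities, on which a difference of 1 is a doubling. RMA compresses differences of dim probe sets. Array medians over 22011 probe sets ranged over 4.22 to 4.34. With 3 arrays a group, precision is set by the number of arrays. The negative control's replicate 1 was the array most unlike its group: its root mean square deviation was 0.169, and those of the remaining arrays ran from 0.0698 to 0.131. Of 6 epithelial markers, KRT8, KRT18, KRT19, EPCAM and CDH1 averaged between 5.87 and 11.5 over the arrays and KRT7 averaged 3.47. Some of these markers moved with miR-520f: against non-transfected and then negative control cells, EPCAM rose by 1.57 and 1.68, CDH1 rose by 1.07 and 1.15, and KRT19 had log2 differences of -0.75 and -0.68, each called in limma against both controls. Their part in the results below was not tested. Of 12 measured markers of immune, endothelial, fibroblast, acinar and islet cells, 11 averaged between 2.98 and 3.90, and COL1A1 averaged 7.84. In a bulk RNA sample, less RNA per cell and fewer cells carrying that RNA cannot be told apart.

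HPRT1 fell furthest of the 10 enzymes (probe set 3991698). It measured 5.53, 5.13 and 5.13 on the miR-520f arrays, against 7.56, 7.59 and 8.09 on the negative control arrays and 7.54, 7.54 and 7.43 on the non-transfected arrays. Each miR-520f array lay more than a log2 unit below each control array. The negative control arrays all lay above the non-transfected ones. Group means were 5.26 ± 0.23 with miR-520f, 7.74 ± 0.30 with the negative control and 7.51 ± 0.06 in non-transfected cells (SD, n = 3 each). Its log2 difference from non-transfected cells was -2.25 (SE 0.15) and from negative control cells -2.48 (SE 0.15), which is 4.74-fold and 5.59-fold lower on the linear scale. By the smaller of its differences it stood at rank 4 among the 1226 genes that limma called lower than both controls, a count that includes HPRT1. That rank uses the same values by which HPRT1 was chosen, so it only describes the size of the fall and tests nothing. The comparison that did not choose HPRT1, negative control against non-transfected cells, gave a log2 difference of 0.24 (SE 0.15, limma adjusted p = 0.376), and the difference was 0.07 (limma adjusted p = 0.817) without replicate 3 of the negative control, the array at 8.09.

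**Figure D1:**
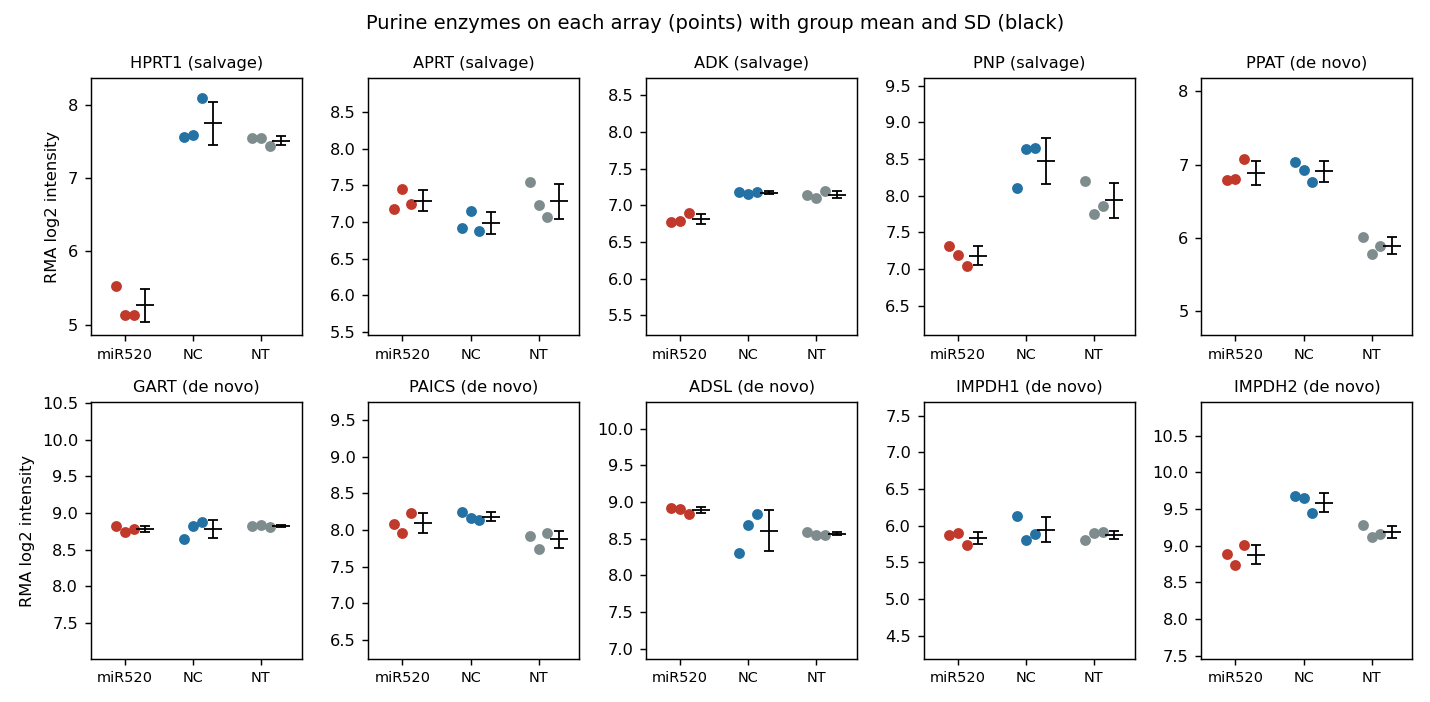
RMA log2 intensity (vertical axis, each panel spanning 3.5 log2 units) of the 10 purine enzymes on each array, with miR-520f, negative control (NC) and non-transfected (NT) arrays from left to right; points are arrays in replicate order, and black marks are group means with SD (n = 3). The miR-520f points lie below all control points for HPRT1, ADK, PNP and IMPDH2, and PPAT is lower on the non-transfected arrays than on the other 6.

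The remaining salvage enzymes differed among themselves. PNP, purine nucleoside phosphorylase, measured 7.31, 7.19 and 7.05 on the miR-520f arrays, against 8.11, 8.64 and 8.65 on the negative control arrays and 8.20, 7.75 and 7.86 on the non-transfected arrays. No miR-520f array reached any control array. PNP fell by 0.75 against non-transfected cells (SE 0.16, limma adjusted p = 0.00382) and by 1.28 against the negative control (SE 0.16, limma adjusted p = 0.000105). PNP was also higher in negative control than in non-transfected cells, by 0.53 (SE 0.16, limma adjusted p = 0.0433), although those groups overlapped. That call of the negative control against non-transfected cells was lost under 11 of 17 alternatives, among them the replicate block (adjusted p = 0.0632), median centring (0.0592) and leaving out any 1 of the 3 miR-520f arrays, replicates 2 and 3 of the negative control, or replicates 2 and 3 of the non-transfected cells (limma adjusted p up to 0.165).

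ADK, adenosine kinase, changed less but with little spread. Its values were 6.77, 6.79 and 6.90 with miR-520f, against 7.18, 7.16 and 7.19 with the negative control and 7.14, 7.09 and 7.19 in non-transfected cells. The miR-520f arrays again lay below all 6 control arrays, and the control groups could not be separated (difference 0.03, limma adjusted p = 0.869). ADK fell by 0.32 against non-transfected cells (SE 0.07, limma adjusted p = 0.00378) and by 0.36 against the negative control (SE 0.07, limma adjusted p = 0.00199).

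APRT, which salvages adenine, was not called in any comparison. It measured 7.18, 7.45 and 7.25 with miR-520f, 6.93, 7.15 and 6.88 with the negative control and 7.54, 7.24 and 7.07 in non-transfected cells. The miR-520f arrays lay above the negative control arrays, and the non-transfected arrays overlapped with both groups. Its log2 difference from non-transfected cells was 0.01 (95% interval -0.27 to 0.29, limma adjusted p = 0.973). Against the negative control it was 0.31 (95% interval 0.03 to 0.59, not adjusted over genes; limma adjusted p = 0.0962), and the adjusted p became 0.0462 without replicate 1 of the non-transfected cells.

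Among the de novo enzymes, PPAT, the amidotransferase that commits PRPP to purine synthesis, differed between transfected and non-transfected cells (probe set 2770242). It measured 6.79, 6.80 and 7.07 with miR-520f, 7.04, 6.93 and 6.76 with the negative control, and 6.01, 5.78 and 5.89 in non-transfected cells. All 6 arrays of cells given a mimic, of either kind, lay above the 3 arrays of cells given the reagent alone. PPAT was higher than in non-transfected cells by 0.996 with miR-520f (SE 0.10, limma adjusted p = 3.57e-05) and by 1.02 with the negative control (SE 0.10, limma adjusted p = 0.000126), comparisons that share the non-transfected arrays. Between miR-520f and the negative control its log2 difference was -0.02, with a 95% interval of -0.25 to 0.21 (limma adjusted p = 0.922).

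PAICS, which carries out a pair of middle steps, lies head to head with PPAT in the genome. It measured 8.08, 7.96 and 8.23 with miR-520f, 8.25, 8.16 and 8.13 with the negative control and 7.91, 7.73 and 7.96 in non-transfected cells. The negative control arrays lay above the non-transfected ones, and the lowest miR-520f array overlapped with them. PAICS was higher in negative control than in non-transfected cells by 0.31 (SE 0.09, limma adjusted p = 0.0397), whereas the miR-520f differences were 0.22 against non-transfected cells (limma adjusted p = 0.101) and -0.09 against the negative control (limma adjusted p = 0.549). The first of these calls was lost under 9 of 17 alternatives, including leaving out any array of the negative control, replicate 1 or 2 of the non-transfected cells, or replicate 1 of miR-520f (limma adjusted p up to 0.175). Median centring brought the difference between miR-520f and non-transfected cells to 0.29 (limma adjusted p = 0.0499).

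The PPAT start region is shown because it is shared with PAICS and both genes were higher in negative control than in non-transfected cells. Both genes have a RefSeq window of 250 bases before to 50 after a start, and the PPAT window shares 236 bases with 1 of the 3 PAICS windows, which is read from the other strand. The sequence is that of the PPAT strand (minus), chr4:56435566-56435865, GRCh38.p14, 5′ to 3′, with the E-box CACGTG in capitals. This motif, bound in general by basic helix-loop-helix factors such as MYC, was searched for after the values were seen.
PPAT: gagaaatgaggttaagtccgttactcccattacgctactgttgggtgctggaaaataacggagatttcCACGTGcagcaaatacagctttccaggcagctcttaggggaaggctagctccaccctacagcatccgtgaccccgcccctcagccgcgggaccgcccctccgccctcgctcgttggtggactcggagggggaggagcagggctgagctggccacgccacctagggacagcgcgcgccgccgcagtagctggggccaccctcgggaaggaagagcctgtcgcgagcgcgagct
The motif, which reads the same on both strands, starts 182 bases before the PPAT start, in the stretch shared with PAICS. In that PAICS window the motif lies within the 50 bases after the start. It was present in 2 of 13 windows of the 8 members that have one. These are the overlapping PPAT and PAICS windows, so the same site is counted in each. Of all 35116 windows of the same length, 7.26% held the motif. Whether the site bears on either gene in these cells was not tested. ADSL and IMPDH2 are the members without a window in the table.

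GART, a trifunctional enzyme of the early and middle steps, differed least between the groups among the 10 enzymes. It measured 8.82, 8.74 and 8.78 with miR-520f, 8.64, 8.82 and 8.88 with the negative control and 8.82, 8.83 and 8.81 in non-transfected cells. Its log2 differences were -0.04 against non-transfected cells (95% interval -0.20 to 0.13, limma adjusted p = 0.834) and 0.00 against the negative control (95% interval -0.16 to 0.17, limma adjusted p = 0.983).

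ADSL, adenylosuccinate lyase, acts once on the way to IMP and again on the way to AMP. It measured 8.92, 8.90 and 8.84 with miR-520f, 8.30, 8.69 and 8.84 with the negative control and 8.59, 8.55 and 8.55 in non-transfected cells. The miR-520f arrays lay above all control arrays, by less than 0.01 at replicate 3 of the negative control. Its log2 differences, 0.32 from non-transfected and 0.28 from negative control cells, did not pass (limma adjusted p = 0.0617 and 0.102). Against non-transfected cells ADSL passed under 5 of 17 alternatives: without replicate 1 (limma adjusted p = 0.00315) or replicate 3 (0.0281) of the negative control, with only the 2 groups compared in the fit (0.00361), with median centring (0.0437) and without genes below the lower quartile of mean level (0.0480). Against the negative control it passed without replicate 3 of that group (difference 0.39, limma adjusted p = 0.0190), while the difference was 0.13 (limma adjusted p = 0.279) without its replicate 1, the lowest ADSL array at 8.30.

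IMPDH1 and IMPDH2 are isoenzymes of the step that leads from IMP towards guanylate. IMPDH2 measured 8.88, 8.74 and 9.01 with miR-520f, against 9.68, 9.64 and 9.44 with the negative control and 9.29, 9.12 and 9.16 in non-transfected cells. The 3 groups did not overlap, with the negative control highest and miR-520f lowest. IMPDH2 fell by 0.71 against the negative control (SE 0.09, limma adjusted p = 0.000176) and by 0.31 against non-transfected cells (SE 0.09, limma adjusted p = 0.0279). It was higher in negative control than in non-transfected cells by 0.40 (SE 0.09, limma adjusted p = 0.0146).

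The call of IMPDH2 against non-transfected cells was lost under 6 of 17 alternatives: an unmoderated model (adjusted p = 0.0713), median centring (limma adjusted p = 0.108), and leaving out replicate 1 or 3 of the non-transfected cells or replicate 1 or 2 of miR-520f (limma adjusted p from 0.0544 to 0.116). Its call between negative control and non-transfected cells was lost in the unmoderated model (adjusted p = 0.0600), without replicate 2 of the non-transfected cells (limma adjusted p = 0.0661) and without replicate 2 of the negative control (limma adjusted p = 0.0528). IMPDH1 was not called in any comparison. It measured 5.87, 5.89 and 5.73 with miR-520f, 6.13, 5.80 and 5.89 with the negative control and 5.81, 5.90 and 5.91 in non-transfected cells, with log2 differences of -0.04 (95% interval -0.25 to 0.16) against non-transfected cells and -0.11 (95% interval -0.32 to 0.09) against the negative control. Whether the isoenzymes differed in their response was not tested.

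**Figure D2:**
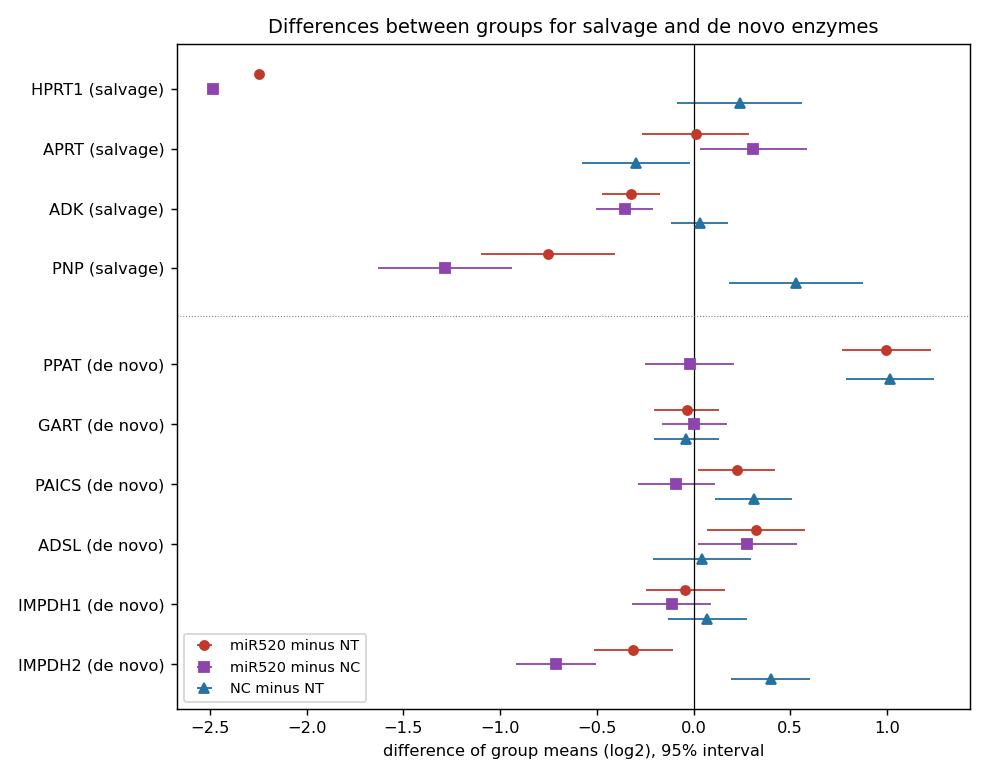
Difference of group means on the log2 scale (horizontal axis) for each enzyme, with circles for miR-520f minus non-transfected (NT), squares for miR-520f minus negative control (NC) and triangles for negative control minus non-transfected; bars are 95% intervals not adjusted over genes, and HPRT1 has none in the miR-520f comparisons because it was chosen for its fall. HPRT1 stands at -2.25 and -2.48, PNP and ADK below 0 in both miR-520f comparisons, and PPAT near 1 in both comparisons with non-transfected cells.

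Set side by side, salvage and de novo enzymes gave different counts. Among the 3 salvage enzymes besides HPRT1, 2 (PNP and ADK) were lower than both controls and 0 higher, and the median log2 difference from non-transfected cells was -0.32 and from negative control cells -0.36. With HPRT1 included, the medians over 4 genes were -0.54 and -0.82, which carry the choice of HPRT1 by its fall and are no evidence about salvage. Of 6 de novo enzymes, 1 (IMPDH2) was lower than both controls and 0 higher, with medians of 0.09 and -0.05. At an unadjusted p under 0.05 in both limma comparisons 1 de novo enzyme (ADSL) was higher, and the unmoderated model called 0 de novo enzymes in either direction against both controls. Over all genes tested the medians were -0.03 and -0.03, 8.61% of genes were lower than both controls and 9.37% were higher, each at a limma adjusted p under 0.05 in both comparisons with the same sign.

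In the separate comparisons, 1 of the 9 members besides HPRT1 was higher and 3 were lower against non-transfected cells, where 14.5% and 13.1% of all genes were called in those directions. Against the negative control 0 were higher and 3 lower (15.4% and 12.6% of all genes), with APRT and ADSL higher at an unadjusted limma p (0.0319 and 0.0344) and not after adjustment. Between negative control and non-transfected cells 4 of the 10 members, PNP, PPAT, PAICS and IMPDH2, were higher and 0 lower (7% and 8.28% of all genes), with APRT lower at an unadjusted limma p of 0.0375. The miR-520f arrays stood apart from all 6 control arrays for PNP, ADK, IMPDH2 and, on the higher side, ADSL, as they did for 25.4% of all genes. Since the list was drawn up with these results known, the counts describe these enzymes and test nothing about the routes.

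Other genes of nucleotide metabolism were counted from lists by pathway, which were also drawn up with some results known. For each list count, the share over all genes tested was 9.37% higher and 8.61% lower than both controls in limma. Of 5 further de novo and branch enzymes, 4 were measured, and 0 changed against both controls in limma, also at an unadjusted p under 0.05 and in the unmoderated model. GMPS, which makes guanylate after IMPDH, measured 9.04, 8.89 and 9.29 with miR-520f, 9.07, 8.93 and 8.80 with the negative control and 8.57, 8.45 and 8.52 in non-transfected cells. Like PPAT it was higher on every array of cells given a mimic, by 0.56 with miR-520f (limma adjusted p = 0.00234) and by 0.42 with the negative control (limma adjusted p = 0.0219), against the shared non-transfected arrays. ADSS1, an adenylosuccinate synthetase of the adenylate branch named after its values were seen, was lower on every array of cells given a mimic. It measured 4.30, 4.25 and 4.21 with miR-520f, 4.28, 4.36 and 4.41 with the negative control and 4.72, 4.74 and 4.93 in non-transfected cells. Its log2 differences from those shared non-transfected arrays were -0.54 with miR-520f (limma adjusted p = 0.000302) and -0.45 with the negative control (limma adjusted p = 0.00277), and that between miR-520f and the negative control was -0.10 (limma adjusted p = 0.436). The ADSS1 probe set was near the array medians, where RMA compresses differences. ADSS2, the other adenylosuccinate synthetase gene of the list, was not measured with a probe set of its own. PFAS, a de novo enzyme upstream of PAICS, was lower with miR-520f, with a log2 difference from non-transfected cells of -0.28 (limma adjusted p = 0.0263). That call was lost under 6 alternatives, among them median centring and leaving out replicate 1 or 3 of miR-520f or replicate 1 or 2 of the non-transfected cells (limma adjusted p up to 0.105), and its difference from the negative control was -0.14 (limma adjusted p = 0.256). ATIC, which carries out the last steps to IMP and was named after its values were seen, had log2 differences of 0.17 and 0.03 (limma adjusted p = 0.313 and 0.899). Of 3 measured genes of PRPP supply, PRPSAP1, an associated protein of PRPP synthetase, rose by 0.34 over non-transfected and by 0.35 over negative control cells (limma adjusted p = 0.00567 and 0.00492). PRPS2, a PRPP synthetase also named after its values were seen, had log2 differences of -0.05 and -0.01 (limma adjusted p = 0.790 and 0.959). PRPS1, another PRPP synthetase of the list, was not measured with a probe set of its own.

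Enzymes that break down or interconvert purine nucleotides included the largest fall of these lists. NT5E, the cell surface nucleotidase CD73 that makes adenosine from AMP, measured 8.53, 8.36 and 8.68 with miR-520f, against 10.54, 10.47 and 10.50 with the negative control and 10.28, 10.19 and 10.21 in non-transfected cells. All miR-520f arrays lay more than a log2 unit below the controls. NT5E fell, with log2 differences of -1.70 from non-transfected cells (SE 0.09, limma adjusted p = 3.11e-07) and -1.98 from the negative control (SE 0.09, limma adjusted p = 1.19e-07).

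The AMP deaminases AMPD2 and AMPD3, which turn AMP into IMP, also fell. AMPD3 measured 4.15, 4.23 and 4.16 with miR-520f, against 5.20, 5.32 and 5.30 with the negative control and 5.01, 4.86 and 4.68 in non-transfected cells, a fall by 0.67 against non-transfected cells (limma adjusted p = 0.000187) and by 1.10 against the negative control (limma adjusted p = 5.48e-06). AMPD2 fell by 0.62 and 0.52 (limma adjusted p = 0.000689 and 0.00216). Both probe sets were near the array medians, where RMA compresses differences. Of the 18 measured genes of this list, 3 were lower than both controls and 0 higher (8.61% and 9.37% of all genes). At an unadjusted p under 0.05 in limma 4 were lower and 0 higher, and the median differences were -0.07 and -0.07.

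Of 11 measured nucleotide kinases, 2 were lower than both controls and 0 higher (8.61% and 9.37% of all genes). The same counts held at an unadjusted p under 0.05 in limma, and the unmoderated model called 1 lower. AK1, an adenylate kinase, measured 4.35, 4.34 and 4.21 with miR-520f, against 5.02, 5.36 and 5.43 with the negative control and 5.94, 5.78 and 5.78 in non-transfected cells. The 3 groups did not overlap. AK1 fell by 1.54 against non-transfected cells (limma adjusted p = 1.92e-06) and by 0.98 against the negative control (limma adjusted p = 4.37e-05). AK9 averaged 3.53 over the arrays, within the range of 2.98 to 3.90 of 11 markers of other cell types. At levels of 3.07 to 3.22 with miR-520f, AK9 fell by 0.40 and 0.78 (limma adjusted p = 0.0271 and 0.000461). The first of these calls was lost under 7 alternatives, among them both rescalings and leaving out replicate 1 or 3 of miR-520f or replicate 1 or 2 of the non-transfected cells (limma adjusted p up to 0.104).

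Folate one-carbon supply feeds the formyl groups of the purine ring. Among its 10 measured genes, 2 rose against both controls and 0 fell (9.37% and 8.61% of all genes). At an unadjusted p under 0.05 in limma 4 were higher and 0 lower, and the unmoderated model called 0. SHMT1, the cytosolic serine hydroxymethyltransferase, rose by 0.54 over non-transfected and by 0.44 over negative control cells (limma adjusted p = 0.00430 and 0.0133). SLC19A1, the reduced folate carrier, rose by 0.34 and 0.74 (limma adjusted p = 0.0302 and 0.000282). The SHMT1 call against the negative control was lost without replicate 1 of miR-520f (limma adjusted p = 0.0505). That call was also lost in the unmoderated model (adjusted p = 0.0637). The SLC19A1 call against non-transfected cells was lost without any 1 of the non-transfected arrays and without replicate 2 or 3 of miR-520f (limma adjusted p up to 0.120). The unmoderated model ended this SLC19A1 call as well (adjusted p = 0.0900).

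Of 8 nucleoside and nucleobase transporters, 0 changed against both controls in limma or in the unmoderated model, and 1 (SLC43A3) was higher than both at an unadjusted p under 0.05. SLC43A3, a purine nucleobase transporter, was higher than in the negative control by 0.59 (limma adjusted p = 0.000127) and not called against non-transfected cells (difference 0.18, limma adjusted p = 0.111). SLC29A4 had log2 differences of -0.14 and 0.14 (limma adjusted p = 0.527 and 0.466). With median centring, SLC43A3 also passed against non-transfected cells (difference 0.24, limma adjusted p = 0.0339).

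In the pyrimidine list, taken for contrast, 3 of 10 measured genes were higher than both controls and 1 lower (9.37% and 8.61% of all genes). At an unadjusted p under 0.05 in limma 4 were higher and 2 lower, and the unmoderated model called 2 higher and 0 lower. The thymidine kinase TK1 measured 8.88, 8.92 and 8.79 with miR-520f, against 7.94, 7.71 and 7.77 with the negative control and 8.34, 7.79 and 7.85 in non-transfected cells, and rose by 0.87 and 1.06 (limma adjusted p = 0.000441 and 0.000111). CTPS2, one of the CTP synthases, rose by 0.57 and 0.88 (limma adjusted p = 0.000885 and 4.26e-05), whereas its isoenzyme CTPS1 fell by 0.53 and 0.36 (limma adjusted p = 0.00373 and 0.0292). The uridine-cytidine kinase UCK1 rose by 0.48 and 1.02 (limma adjusted p = 0.0461 and 0.000551). The UCK1 call against non-transfected cells was lost without any 1 array of the miR-520f or non-transfected groups, and the CTPS1 call against the negative control was lost without replicate 1 or 2 of either miR-520f or the negative control (limma adjusted p up to 0.138 and 0.113). The same UCK1 call was also lost in the unmoderated model (adjusted p = 0.162) and with further quantile normalization (limma adjusted p = 0.0648). The same CTPS1 call was also lost in the unmoderated model (adjusted p = 0.0935) and with median centring (limma adjusted p = 0.0785). Comparing only the 2 groups in the fit ended it too (limma adjusted p = 0.0574). The pyrimidine list had median differences of 0.29 and 0.08.

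**Figure D3:**
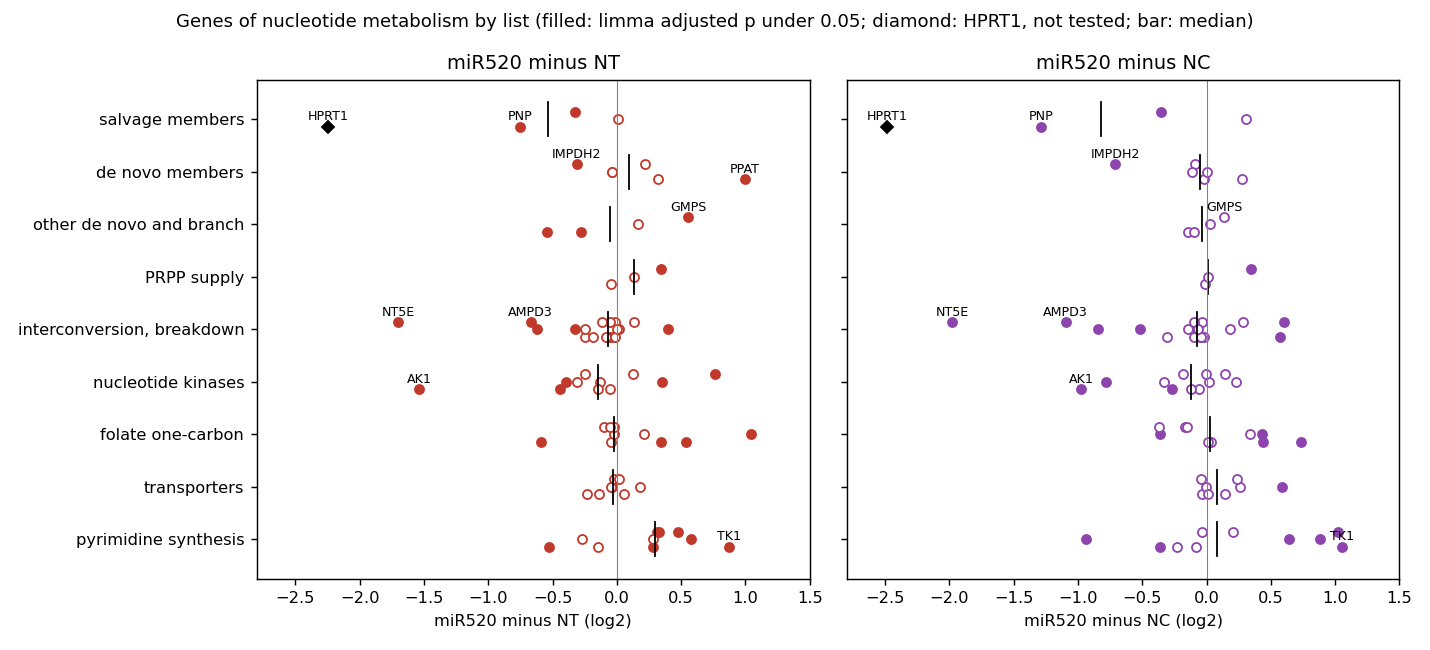
Log2 difference of miR-520f from non-transfected (NT, left) and negative control (NC, right) cells for each measured gene of the pathway lists (rows); filled points passed a limma adjusted p under 0.05, open points did not, the diamond is HPRT1, which was not tested, and short bars are list medians. The median of the salvage members includes HPRT1, which was chosen for its fall. HPRT1, NT5E, AK1 and PNP lie farthest to the left in the panel against non-transfected cells, while PPAT and GMPS lie to the right there and near 0 in the panel against the negative control.

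Since HPRT1 serves as a reference gene in many expression assays, the other common reference genes were set beside it. Of 14 such genes, 9 were measured with a probe set of their own: ACTB, B2M, TBP, GUSB, PPIA, YWHAZ, TFRC, PGK1 and SDHA. Their log2 differences ran from -0.22 (SDHA) to 0.64 (TBP) against non-transfected cells and from -0.30 (TFRC) to 1.08 (TBP) against the negative control, where HPRT1 had -2.25 and -2.48. TBP, the TATA-binding protein, was the 1 gene of the list higher than both controls. It measured 9.25, 9.20 and 9.36 with miR-520f, against 8.26, 8.21 and 8.10 with the negative control and 8.68, 8.59 and 8.62 in non-transfected cells. TBP rose by 0.64 (SE 0.07, limma adjusted p = 7.70e-05) against non-transfected cells and by 1.08 (SE 0.07, limma adjusted p = 1.93e-06) against the negative control, and was lower in negative control than in non-transfected cells (-0.44, limma adjusted p = 0.00256). The actin gene ACTB had differences of -0.10 and -0.07 (limma adjusted p = 0.476 and 0.645), and the glycolytic gene PGK1 had 0.03 and 0.08 (limma adjusted p = 0.824 and 0.435). SDHA was called lower than in non-transfected cells (-0.22, limma adjusted p = 0.0491), and was lower than both controls at an unadjusted limma p under 0.05. TFRC was called lower than in the negative control (-0.30, limma adjusted p = 0.0237). It was called higher in negative control than in non-transfected cells (0.50, limma adjusted p = 0.00318).

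**Figure D4:**
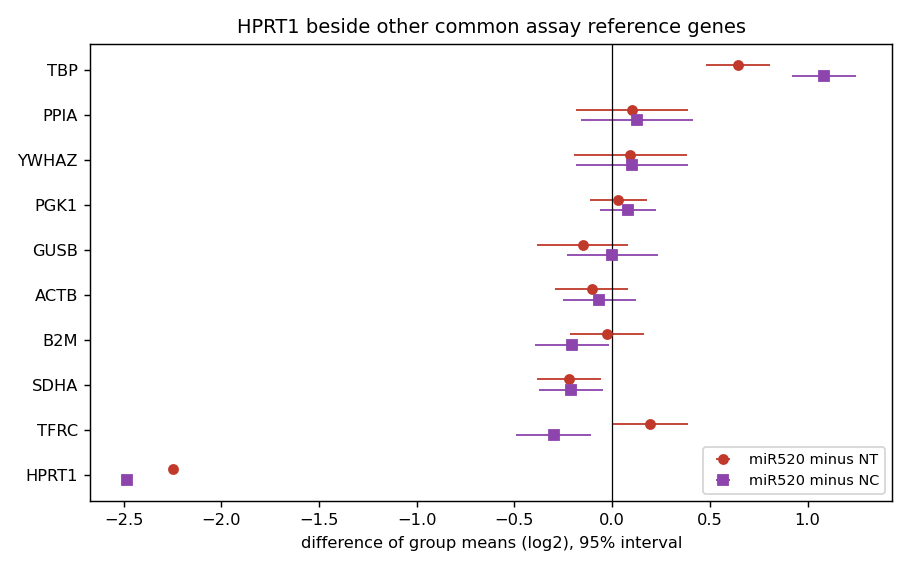
Log2 difference of miR-520f from non-transfected cells (circles) and from negative control cells (squares) for HPRT1 and 9 other genes used as references in expression assays; bars are 95% intervals not adjusted over genes, and HPRT1, chosen for its fall, has none. HPRT1 lies at -2.25 and -2.48 and TBP at 0.64 and 1.08, with the other genes between -0.30 and 0.20.

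The 5 genes with the pattern nearest to HPRT1 were found by the root mean square difference over the 9 arrays, each gene centred on its own mean. They were OCRL, an inositol phosphatase (0.226), IL6ST, the receptor chain shared by interleukin-6 cytokines (0.227), APPL2, an endosomal adaptor (0.241), AREL1, a ubiquitin ligase (0.246), and MRPS35, a protein of the mitochondrial ribosome (0.253). These distances are in log2 units. Against non-transfected and then negative control cells, OCRL had log2 differences of -1.98 and -2.17, IL6ST had -2.35 and -2.56, and MRPS35 had -1.81 and -2.03. No enzyme of the purine lists was among the 5. The distance weighs the size of a change, so a gene that fell much less than HPRT1 could not be near it. Whether the enzymes followed HPRT1 on a smaller scale was not tested.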

How the data were processed

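The 9 arrays came as 1 deposited table of log2 intensities, with 22011 probe sets. RMA, Partek 6.6 and build hg18 are named in the submitters' processing notes, so the log2 intensities were already normalized between arrays; settings and any probe set filter are not given in the sources used here. Probe sets with 1 gene symbol in the platform annotation (14432; 2408 had several and 5171 none) were reduced to the brightest per gene over all arrays, giving 14232 genes; each member had 1 probe set.

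Differences were tested with limma 3.58.1 in R 4.3.3: a mean for each group, 6 residual degrees of freedom, empirical Bayes moderation and Benjamini-Hochberg adjustment over all genes, at 0.05. P-values reflect only how these arrays vary, which may be technical. The fit was tested on simulated data. The members and lists were chosen with earlier results of these data known. All members were named; of each other list up to 4 genes called against both controls were named, or, where none was called, the 2 with the largest value of the smaller of their differences from the controls, and for reference genes every such call. Alternatives were an unmoderated model, 2 rescalings, a filter on dim genes, a variance trend, fits on 2 groups, a replicate block, averaged probe sets and leaving out each array. Microarray batches were not tested, as no scan date was among the sources used here.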

Additional observations from a re-analysis of the deposited data

How the results depend on the processing

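All gene results checked kept their direction wherever they were called, over 17 alternatives. Checks gene by gene covered the members in all 3 comparisons and the other genes named by rule in the 2 miR-520f comparisons. Other genes were not covered, among them the cell type markers, ADSS1, ATIC, PRPS2, SDHA and TFRC. The calls of GMPS and TBP between negative control and non-transfected cells were not covered either. The log2 difference of HPRT1 stayed between -2.38 and -2.18 against non-transfected cells and between -2.62 and -2.31 against the negative control. Of 40 such gene results called, 30 were called under every alternative. Of 22 not called, 17 stayed so. The changes are given beside each gene above, for some genes only in part. PNP and ADK were called lower than both controls under every alternative, and the number of de novo enzymes so called was 0 to 1. Folate genes higher than both controls numbered 0 to 3, and pyrimidine genes 2 to 4.

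Over all genes, 3927 and 3996 genes were called for miR-520f against non-transfected and negative control cells, and leaving out 1 array gave 3153 to 4491 and 3197 to 4037. Between negative control and non-transfected cells 2174 genes were called, 1287 in the unmoderated model and 1394 to 2181 with 1 array left out, the lowest without replicate 2 of the non-transfected cells. The first of these changes comes from dropping moderation; for the other the cause was not tested.

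The replicate numbers were not used to pair the samples, except in the replicate block. Deviations of same-numbered arrays correlated at -0.0262 to 0.205, and an array correlated best with its own number in 11 of 18 cases. These values were not compared with chance, and whether same-numbered arrays belong together was not tested. With the replicate block 4060, 4159 and 2297 genes were called in the 3 comparisons, more than the 3927, 3996 and 2174 without it. Among the gene results checked, the block ended only the call of PNP between negative control and non-transfected cells (limma adjusted p = 0.0632).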
